A study of Mus musculus with 31 samples.

Results

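The genes described here are the Nduf genes, the nuclear genes of respiratory complex I and of its assembly, chosen as every protein-coding gene of the GENCODE M21 annotation whose symbol starts with Nduf. There were 46 of them, and all 46 were in the deposited count tables of both tissues, of 13677 genes in liver and 15987 in epididymal white adipose tissue (eWAT, the fat pad beside the epididymis). The choice used names alone and no measured value. By role they fall into 7 core subunits, 10 accessory subunits of the matrix arm, 19 accessory subunits of the membrane arm, Ndufa4 with its paralog Ndufa4l2, and 8 assembly factors (Ndufaf genes). The first 3 classes together make 36 subunit genes. A further Nduf symbol in both tables, Ndufb1-ps, is annotated as a non-coding transcript and was outside the rule.

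Complex I is the entry point of the mitochondrial electron transport chain. It oxidises NADH from nutrient breakdown, passes the electrons through flavin and iron-sulphur clusters of its matrix arm to ubiquinone, and pumps protons across the inner membrane through its membrane arm. Its subunits are encoded partly in the nucleus and partly in mitochondrial DNA, and the parts are joined as modules by assembly factors that leave before the complex is finished. Liver is rich in mitochondria, while a white adipocyte holds one large lipid droplet and comparatively few.

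RNA-seq was made from male wild-type F1 mice of the C57BL/6 strain at 24 weeks of age, in 3 arms, LF, HF and HFLF, which carry the diet tags LFD, HFD and HFLFD in the labels. Every animal of every arm was itself given chow after weaning and then the LFD for 18 weeks from the age of 6 weeks. For that reason the tag was taken to name the diet history of the father's line, as the series title implies, although no label states it. The LF arm had 4 libraries in each tissue, the HF arm 5 in liver and 6 in eWAT, and the HFLF arm 6 in each. Nothing in the labels says how many fathers or litters stand behind a group, so the p-values measure the spread between these animals only.

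Library totals over the deposited genes were 9225373 to 17268415 counts in liver and 9278083 to 27230205 in eWAT. The lowest count of any Nduf gene in any library was 16 in liver (Ndufa4l2) and 57 in eWAT (Ndufaf6). Hepatocyte markers (6 of 6 measured, Alb and Apoa1 among them) summed to 75601 to 109523 CPM in liver. Adipocyte markers (5 of 5, Adipoq and Plin1 among them) summed to 23867 to 37029 CPM in eWAT. In eWAT 4 libraries, LF 3, LF 6, HF 2 and HF 6, held 17.9 to 115.5 CPM of 5 testis markers, against at most 4.02 CPM in the other 12, and the 4 epididymis markers searched were not among the genes of the table. B cell markers (4 of 4) were high in LF 2 (317.1 CPM), HF 5 (124.5 CPM) and HF 3 (56.5 CPM), and at most 21.03 CPM in the other 13. Hepatocyte markers (6 of 6) summed to 226.1 CPM in LF 3, 284.0 in LF 5 and 360.2 in HF 5, against at most 90.4 CPM in the remaining eWAT libraries. The comparisons of eWAT arms below are given with and without each of these sets of libraries. Liver against eWAT and the interactions are given without the testis set only.

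CPM, the count scaled to library size, was taken after trimmed-mean (TMM) scaling within a tissue. Fold changes are log2 values from the quasi-likelihood test of edgeR, each with its standard error, and a gene was called when its Benjamini-Hochberg adjusted p over all genes of the fit was under 0.05. The words higher and lower below describe a sign, and a gene is said to have passed a test only where that is stated.

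The promoters of 4 Nduf genes are printed here because the results below turn on their genes: Ndufb2 and Ndufb6 had the smallest p-values of all Nduf genes between HFLF and HF in eWAT, Ndufs8 had the smallest between HF and LF, and Ndufaf4 is an assembly factor with one of the widest gaps between the tissues. Each is the run of 250 bases before the RefSeq transcription start in GRCm38.p6, written 5′ to 3′ on the strand of the gene. These 4 windows hold no exon of the GENCODE M21 annotation, and capitals mark a match to a motif listed after them.
Ndufb2, chr6:39592315-39592564, plus strand: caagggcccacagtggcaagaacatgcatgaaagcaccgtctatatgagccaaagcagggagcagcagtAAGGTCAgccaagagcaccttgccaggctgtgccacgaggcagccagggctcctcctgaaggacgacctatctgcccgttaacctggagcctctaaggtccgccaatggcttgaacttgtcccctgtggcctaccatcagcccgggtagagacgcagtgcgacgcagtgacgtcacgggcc
Ndufb6, chr4:40279422-40279671, minus strand: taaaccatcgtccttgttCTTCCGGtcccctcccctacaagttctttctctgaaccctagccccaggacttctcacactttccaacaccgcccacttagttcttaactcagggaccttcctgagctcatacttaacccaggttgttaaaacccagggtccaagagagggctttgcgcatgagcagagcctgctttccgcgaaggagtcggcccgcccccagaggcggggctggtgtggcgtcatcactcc
Ndufs8, chr19:3912775-3913024, minus strand: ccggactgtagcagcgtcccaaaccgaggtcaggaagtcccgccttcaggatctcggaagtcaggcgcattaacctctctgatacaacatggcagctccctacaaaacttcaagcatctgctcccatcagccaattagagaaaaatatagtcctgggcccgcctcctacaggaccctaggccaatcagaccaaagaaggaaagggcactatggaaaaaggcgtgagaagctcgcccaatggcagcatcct
Ndufaf4, chr4:24897833-24898082, plus strand: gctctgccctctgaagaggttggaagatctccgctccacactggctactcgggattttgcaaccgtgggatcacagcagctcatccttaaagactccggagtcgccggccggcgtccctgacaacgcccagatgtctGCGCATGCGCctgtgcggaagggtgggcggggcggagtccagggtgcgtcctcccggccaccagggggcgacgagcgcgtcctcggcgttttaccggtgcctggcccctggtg

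Promoters from RefSeq were matched by symbol for 40 of the 46 genes, and their 250 bases upstream were searched on both strands for letters of 4 factors known for mitochondrial genes. Only 10 of the 42 Nduf windows hold no exon of the GENCODE M21 annotation, so a match can lie in an exon of the gene or of a neighbour. The letters of NRF1 (GCGCATGC) were in 4 of 40 Nduf promoters (10%), those of Ndufa6, Ndufa8, Ndufa11 and Ndufaf4, and in 2.56% of 27025 genes. GABPA letters (CCGGAAG) were in 5 of 40 (12.5%; Ndufaf1, Ndufaf8, Ndufb6, Ndufb7 and Ndufs3) and in 7.83% of all. The letters of the ERR receptors (AAGGTCA) were in 3 of 40 (7.5%; Ndufb2, Ndufb4 and Ndufs5) and in 4.70% of all, and those of YY1 (AAGATGGC) in 0 of 40 and in 1.83%. Of the printed promoters, Ndufb2 holds the ERR letters, Ndufb6 the GABPA letters in reverse complement, Ndufaf4 the NRF1 letters and Ndufs8 none of the 4. The NRF1 letters and their reverse complement overlap, so a palindromic run shows as 1 longer block of capitals. A match describes letters only.

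The Nduf genes are scattered over 17 chromosomes. In GRCm38 Ndufb2 lies on chr6:39592574-39603382 (plus strand), Ndufb6 on chr4:40270591-40279421 (minus), Ndufa8 on chr2:36036326-36049406 (minus), Ndufs3 on chr2:90894634-90904827 (minus) and Ndufs8 on chr19:3908863-3912774 (minus). Several overlap a neighbour on the other strand, and the sources used here do not say whether reads were counted by strand. The exons of Ndufb6 overlap those of Smim27 over 39.0% of their length (257 bases), those of Ndufa13 overlap Tssk6 over 29.98%, those of Ndufb11 overlap Rbm10 over 12.9% and those of Ndufb5 overlap Mrpl47 over 12.3%. In Ndufaf2 65.6% of the exon length is shared with the antisense transcript B230220B15Rik, which was in neither table. Ndufb9 shares 19.5% of its exon length (201 bases) with Gm49356 on the same strand, which was in the eWAT table only. Near-identical processed pseudogenes were in a table for Ndufa12 (Gm15920), Ndufs5 (BC002163) and Ndufab1 (Gm4459, eWAT only). The levels of these genes are uncertain to that extent.

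Per kb of exon, which allows genes to be compared within a tissue, the assembly factors were the lowest class in both tissues. In eWAT the core subunits had a median of 43.9 CPM per kb, the matrix arm accessory subunits 41.0, the membrane arm accessory subunits 66.3 and the assembly factors 6.35. In liver these medians were 49.7, 42.5, 56.4 and 7.996 CPM per kb. The 3 highest genes in liver were Ndufa4 (168.6 ± 10.2 CPM per kb, SD, n = 15), Ndufb9 (161.2 ± 11.03) and Ndufa1 (143.3 ± 17.8). Ndufa4 was first described as a complex I subunit and is now placed in cytochrome oxidase, and Ndufb9 and Ndufa1 are small membrane arm subunits. In eWAT the 3 highest were Ndufa2 (166.4 ± 26.4 CPM per kb, SD, n = 16), a matrix arm subunit of thioredoxin fold, then Ndufb9 (143.1 ± 20.1) and Ndufa4 (139.1 ± 14.96). Ndufa1, at 137.0 ± 16.7 CPM per kb came next in eWAT, and the differences among Ndufb9, Ndufa4 and Ndufa1 there were smaller than their SDs.

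At the bottom in eWAT stood Ndufaf2 (3.70 ± 0.56 CPM per kb), Ndufaf5 (4.22 ± 0.55) and Ndufaf4 (4.72 ± 0.65). In liver the lowest were Ndufaf5 (2.26 ± 0.45), Ndufa4l2 (2.37 ± 0.54) and Ndufaf2 (3.17 ± 0.53). Assembly factors act in passing on each new complex, whereas subunits stay in it. Among subunits the 3 lowest in each tissue were Ndufb4 (exon length 1916 bases, 6.91 CPM per kb in eWAT and 5.17 in liver), a membrane arm subunit, Ndufb2 (5628 bases, 7.39 and 8.63) and Ndufab1 (6883 bases, 8.65 and 4.79), the mitochondrial acyl carrier protein. The exon length is the union over all annotated transcripts, so a long rare transcript lowers this level.

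Between the tissues, with 1 TMM scaling over the 12735 genes of both tables, 41 of the 46 Nduf genes were called, where 85.5% of all genes were. Of these 38 were higher in liver, against 42.6% of all genes tested, and 3 were higher in eWAT. The median log2 difference of the 46 was 0.72 and that of all genes was 0.00. The direction of the family rests on that scaling. TMM factors were 0.734 to 0.797 in liver and 1.22 to 1.33 in eWAT, and with library totals alone the median of all genes was −0.73, that of the Nduf genes −0.01, and 23 of 46 were higher in liver, 15 of them called, while 19 were called higher in eWAT. On both scales the Nduf median lay above the median of all genes, but the scaling moves all genes by about the same amount. This gap could therefore hardly change, and the second scale is no separate check of it. Under TMM, without the 4 eWAT libraries with testis transcripts, 40 of the 46 were called and their median was 0.75. Tissue cannot be told apart from anything else that differed between the 2 sets of libraries, and in tissue RNA fewer cells of a type and less RNA per cell cannot be told apart.

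All 7 core subunits, which carry the flavin, the iron-sulphur clusters and the quinone site, were called higher in liver under TMM, by 0.59 (Ndufs7) to 1.09 (Ndufs8) on the log2 scale. Ndufv1, the NADH-binding subunit, was at 279.3 ± 17.9 CPM in liver (SD, n = 15, both-tissue scaling) and 158.9 ± 20.6 in eWAT (n = 16), a log2 difference of 0.81 ± 0.05. For its partner Ndufv2 the difference was 0.75 ± 0.06, for Ndufs1 0.67 ± 0.06 and for Ndufs3 0.76 ± 0.05. With library totals Ndufs1 and Ndufs7 had the opposite sign, and Ndufs3, Ndufv1 and Ndufv2 were no longer called. In 28 of the 46 genes the liver and eWAT ranges did not overlap, and in 27 of these every liver library lay above every eWAT library, where 22.9% of all genes did so.

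The accessory subunits were less uniform. Ndufa6, an LYR-motif subunit that holds the acyl carrier protein Ndufab1 in the complex, was at 197.4 ± 15.2 CPM in liver and 63.6 ± 7.53 in eWAT, a log2 difference of 1.63 ± 0.05. Ndufab1 itself was at 44.8 ± 3.85 and 48.5 ± 4.90 CPM, a difference of −0.11 ± 0.05 (edgeR adjusted p = 0.043), a call that 17 of 35 alternatives lost, with adjusted p up to 0.138 (without eWAT LF 3). Ndufb3, a small membrane arm subunit, was higher in eWAT by 0.31 on the log2 scale (−0.31 ± 0.05, adjusted p = 1.3e-06), at 58.4 ± 4.84 CPM in liver and 72.7 ± 9.31 in eWAT. Ndufb8, at 122.3 ± 10.8 and 128.6 ± 16.2 CPM, did not pass the test under TMM (−0.09 ± 0.05, adjusted p = 0.13). With library totals Ndufb8 was called higher in eWAT (−0.83). Ndufa7 was 0.14 ± 0.05 higher in liver (adjusted p = 0.014), but not past the threshold without eWAT HFLF 6 (adjusted p = 0.103), and with library totals Ndufa2, Ndufa7, Ndufb4, Ndufb6 and Ndufb7 had the opposite sign.

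The widest gap went the other way. Ndufa4l2, known as a hypoxia-induced relative of Ndufa4, was at 3.53 ± 0.81 CPM in liver and 14.4 ± 2.63 in eWAT, a log2 difference of −2.03 ± 0.11. Its liver values ran from 2.18 to 5.18 CPM and its eWAT values from 9.40 to 22.1 CPM, with no overlap. Ndufa4 was opposite, at 316.2 ± 19.3 CPM in liver and 156.2 ± 16.5 in eWAT (1.02 ± 0.05).

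Of the 8 assembly factors 5 were called higher in liver under TMM and 3 did not pass. Ndufaf6, which acts in the assembly of the part around mt-Nd1, had the widest gap of all Nduf genes towards liver (1.88 ± 0.07, 20.2 ± 2.38 against 5.51 ± 0.71 CPM), and Ndufaf4, which works with Ndufaf3 on the quinone module, the next among the assembly factors (1.77 ± 0.08, 50.6 ± 7.46 against 15 ± 2.15). Ndufaf1 (0.93 ± 0.07), Ndufaf2 (0.53 ± 0.09) and Ndufaf8 (0.96 ± 0.08) were also higher in liver, Ndufaf2 with the opposite sign under library totals. Ndufaf3 (−0.07 ± 0.07), Ndufaf5 (−0.14 ± 0.09), an enzyme that acts on Ndufs7, and Ndufaf7 (−0.12 ± 0.06), a methyltransferase, did not differ past the threshold under TMM (adjusted p = 0.38, 0.14 and 0.064). With library totals these 3 were called higher in eWAT, at −0.80, −0.88 and −0.86. Ndufaf6 and Ndufaf4 therefore stood apart from Ndufaf3, Ndufaf5 and Ndufaf7 within the same class.

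**Figure D1:**
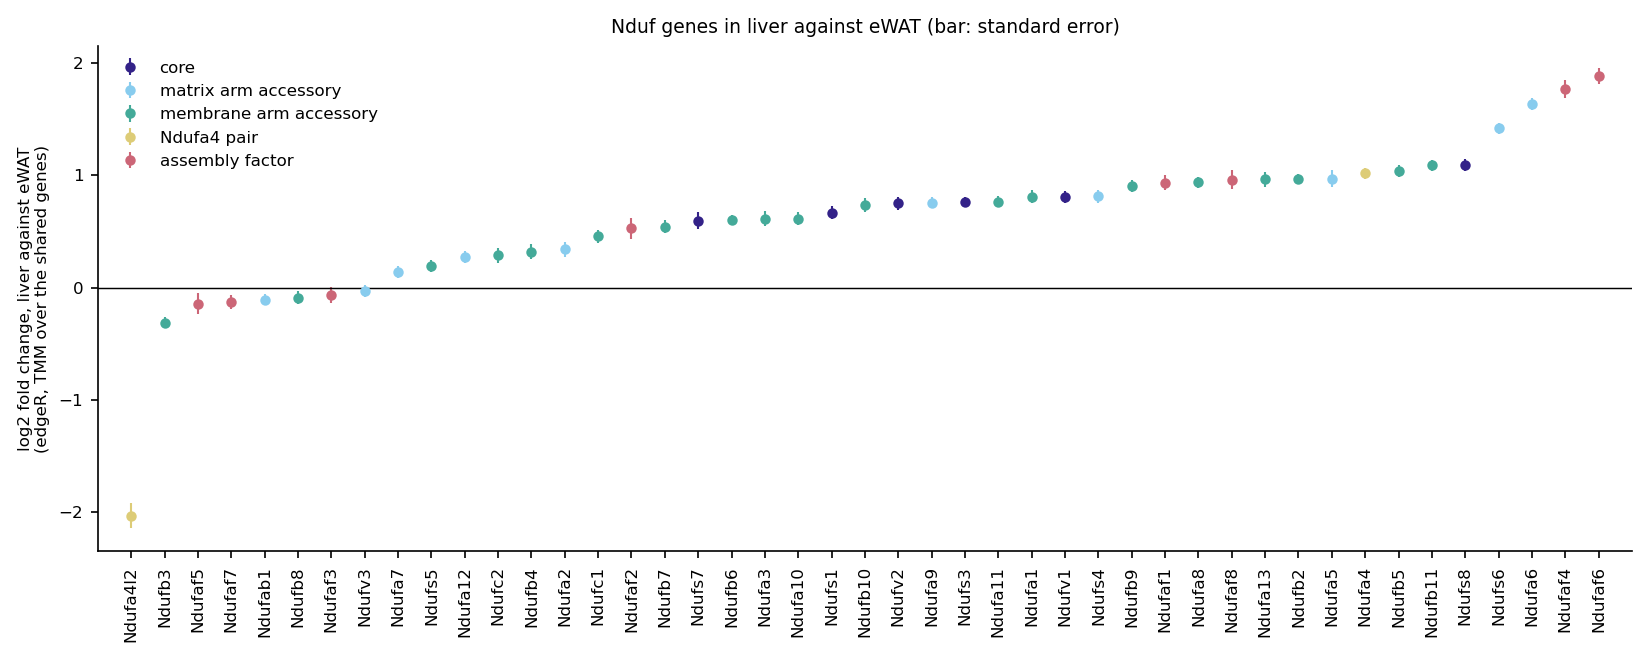
Each point is the log2 fold change of 1 of 45 Nduf genes in liver (15 libraries) against eWAT (16 libraries), with its standard error as a bar, ordered by size and coloured by class. The core subunits shown lie between 0.59 and 1.09, Ndufaf6 is highest at 1.88 and Ndufa4l2 lowest at −2.03.

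The comparisons of arms ask whether offspring of the HF and HFLF lines differ from offspring of the LF line. In all 6 of them 0 Nduf genes passed the adjusted threshold with edgeR, and so did 0% of all genes, which leaves signs, sizes and unadjusted p-values to describe. The Nduf genes were near 0 in liver, where medians were 0.01, 0.01 and 0.00. In eWAT the medians were −0.15 for HF against LF, 0.18 for HFLF against HF and 0.04 for HFLF against LF. Medians of all genes ran from −0.00 to 0.01 in the 6 comparisons. The first 2 eWAT comparisons share the HF libraries, so their opposite signs are not independent.

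**Figure D2:**
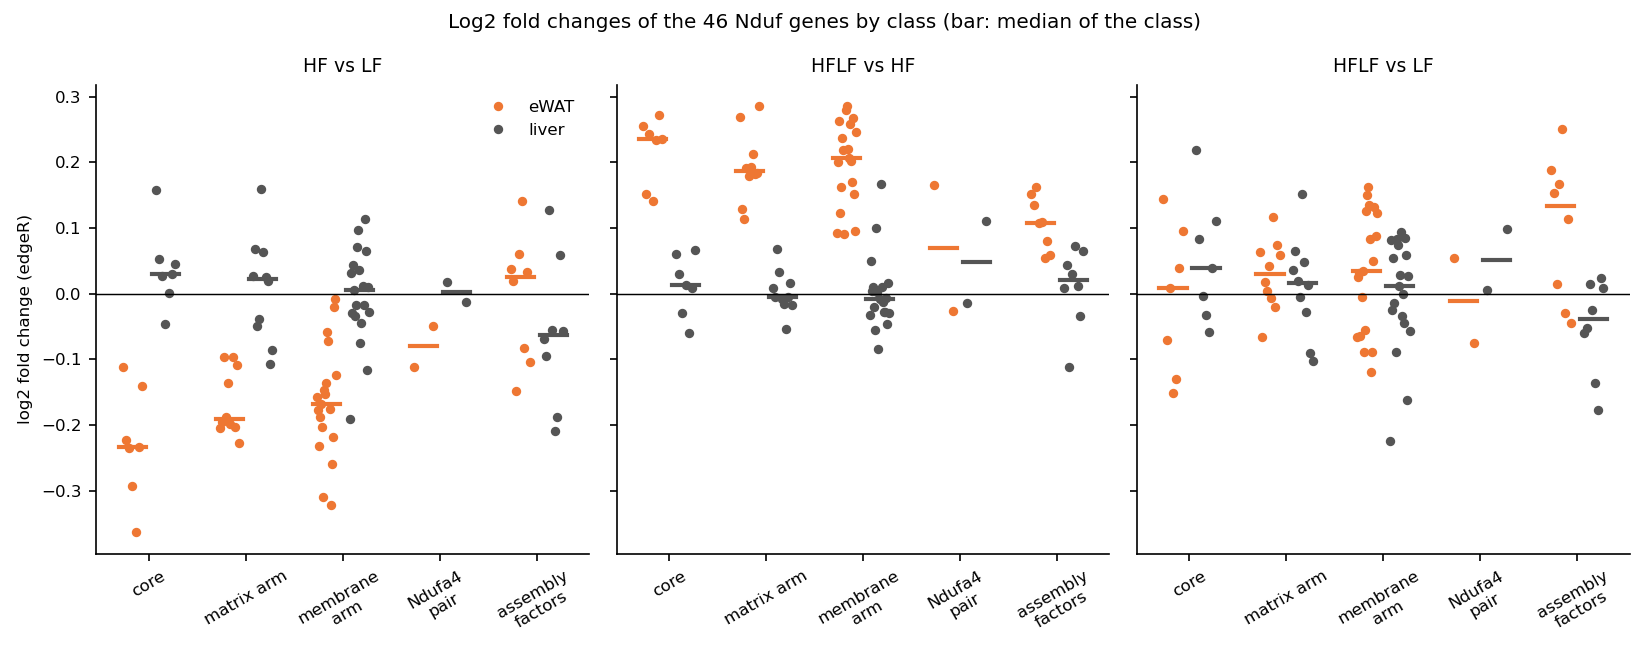
Each point is the edgeR log2 fold change of 1 Nduf gene in eWAT (orange) or liver (grey), in columns by class, with a bar at the class median, and each panel is 1 comparison. In eWAT the 36 subunit genes all lie below 0 for HF against LF and all above 0 for HFLF against HF, while the liver points lie around 0.

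In eWAT, HFLF against HF, 45 of 46 Nduf genes were higher in HFLF, the exception being Ndufa4l2 (−0.03 ± 0.15), where 50.3% of all genes were higher. At an unadjusted p under 0.05, 19 genes were higher and 0 lower, against 4.86% of all genes higher at that p. The Nduf genes moved together by library, with 42 of 46 below their median in HF 4 and 42 above it in HFLF 3. Such counts, here and below, are therefore not made of independent genes. All 36 subunits were higher, with a median of 0.20. The smallest adjusted p of any Nduf gene was 0.38 with edgeR, while DESeq2 called 2 of them, Ndufb2 (0.27 ± 0.07, adjusted p = 0.032) and Ndufb6 (0.25 ± 0.07, adjusted p = 0.031), and 0.325% of all genes. In Ndufa8, Ndufb2, Ndufb3, Ndufb6 and Ndufc1 every HFLF library lay above every HF library, which 0.651% of all genes did.

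The core subunits were higher by 0.14 (Ndufs7) to 0.27 (Ndufv1) in HFLF. Ndufv1 had HF values of 156.3 to 205.1 CPM (median 170.2) and HFLF values of 186.2 to 239.5 (median 208.7), a log2 difference of 0.27 ± 0.09. Only HF 1 among the HF libraries reached into the HFLF range. Ndufs3, of the matrix arm, had HF values of 69.5 to 78.5 CPM (median 75.4) and HFLF values of 76.4 to 98.3 (median 89.7), a difference of 0.24 ± 0.08. Ndufs1, the largest iron-sulphur subunit, was 108.7 ± 9.45 CPM in HF (SD, n = 6) and 129.8 ± 19.2 in HFLF (n = 6), and its HFLF values were led by HFLF 6 at 165.7 CPM. The differences were 0.26 ± 0.11 in Ndufs1, 0.24 ± 0.10 in Ndufv2, 0.23 ± 0.11 in Ndufs8 and 0.14 ± 0.13 in Ndufs7.

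Membrane arm accessory subunits gave the smallest p-values. Ndufb2 had LF values of 41.3, 48.2, 36.6 and 40.8 CPM (LF 2, LF 3, LF 5 and LF 6), HF values of 35.3 to 40.6 (median 37.5) and HFLF values of 42.7 to 49.7 (median 45.0). The HF and HFLF libraries did not overlap, the LF libraries spanned both, and the difference of HFLF from HF was 0.28 ± 0.07. Ndufb6 had LF values of 68.7, 77.7, 66.9 and 69.7 CPM, HF values of 59.4 to 66.8 (median 62.1) and HFLF values of 68.1 to 84.6 (median 73.9). All 6 HF libraries lay below all 4 LF and all 6 HFLF libraries, and the difference of HFLF from HF was 0.26 ± 0.06. Smim27, which shares exon sequence with Ndufb6, differed by 0.10 ± 0.15 in the same comparison.

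Ndufa8, a disulphide-bonded subunit on the intermembrane side, had LF values of 95.4, 117, 93.3 and 119 CPM, HF values of 87.6 to 96.1 (median 92.6) and HFLF values of 98.1 to 120.9 (median 108), a difference of 0.24 ± 0.07. Ndufb3 was 80.8 ± 4.80 CPM in HF and 98.5 ± 13.8 in HFLF (SD, n = 6 each), with HFLF 2 at 125.8 CPM, a difference of 0.29 ± 0.09. Ndufc1, named after its values were seen, was at 41.4 to 47.3 CPM in HF and 47.4 to 52.2 in HFLF, so its ranges were only just apart (0.15 ± 0.07). The other membrane arm subunits were higher by 0.09 to 0.27.

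**Figure D3:**
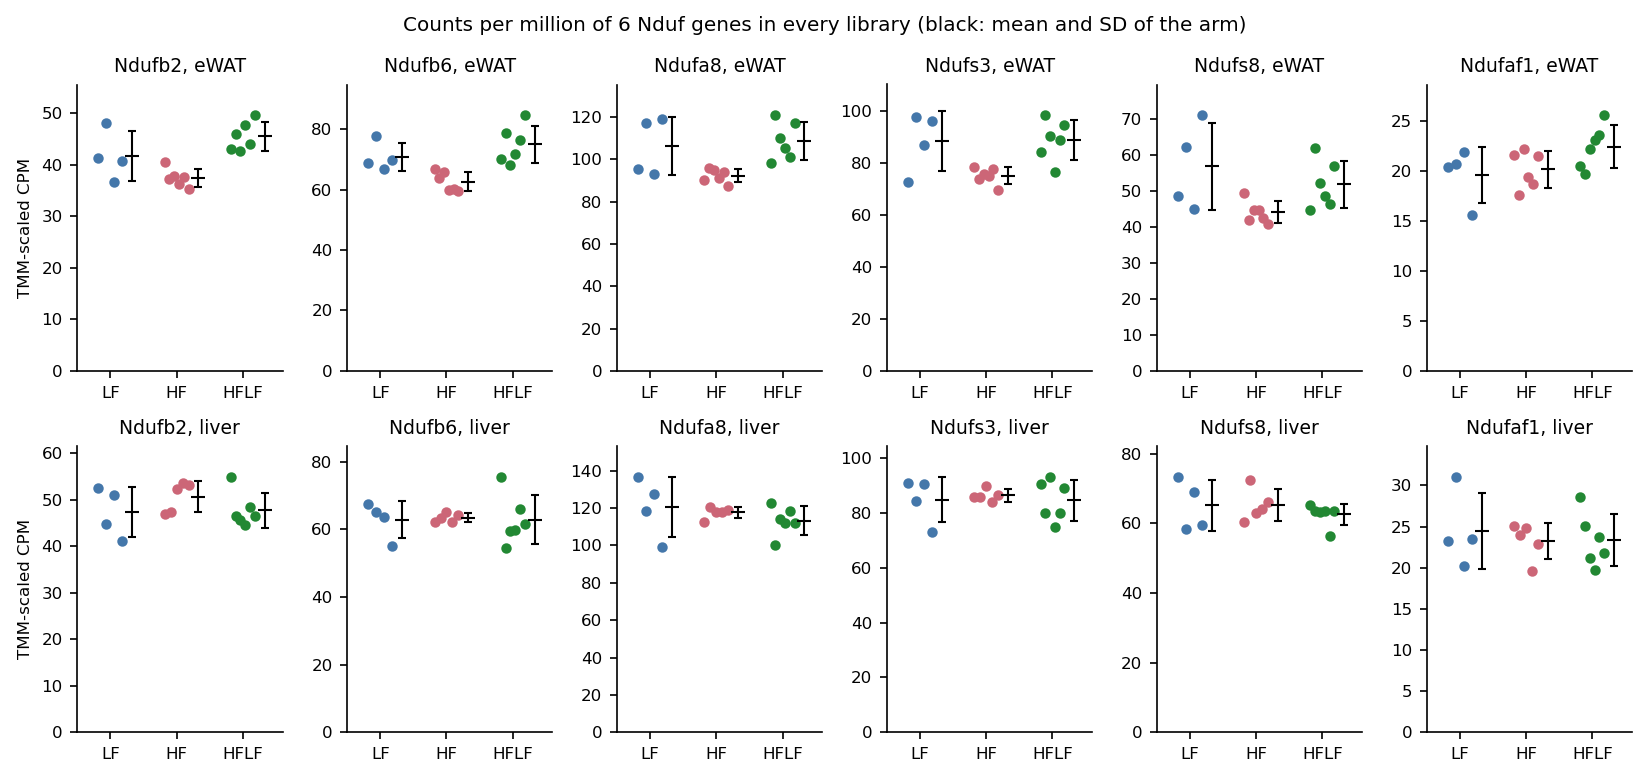
Points are the TMM-scaled CPM of 6 Nduf genes in every library by arm, eWAT in the upper row and liver in the lower, with the mean and SD of each arm in black. In eWAT the HF points of Ndufb2 (35.3 to 40.6 CPM) and Ndufb6 (59.4 to 66.8 CPM) lie below all HFLF points, while in liver the 3 arms overlap.

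Ndufab1 was at 55.3 ± 3.08 CPM in HF and 64.1 ± 3.26 in HFLF (0.21 ± 0.07). Of the matrix arm subunits with it, all 10 were higher, by 0.11 to 0.29. Assembly factors were higher in 8 of 8 but by less, with a median of 0.11 and a range of 0.05 (Ndufaf6) to 0.16 (Ndufaf3), and 0 of them had an unadjusted p under 0.05. The difference between the classes was not tested.

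The scaling moved this comparison in size. With library totals in place of TMM the median of all genes was −0.07 and that of the Nduf genes 0.11, with 43 of 46 higher and 10 at an unadjusted p under 0.05. The Nduf median lay above that of all genes on both scales, but the scaling moves all genes by about the same amount. The gap between the medians was thus nearly fixed, and the second scale does not check it. Without LF 3, LF 6, HF 2 and HF 6, the libraries with testis transcripts, 44 of 46 were higher with a median of 0.14, and 17 had an unadjusted p under 0.05. Without the B cell libraries LF 2, HF 3 and HF 5, 45 of 46 were higher with a median of 0.20 and 13 at that p. Omitting LF 3, LF 5 and HF 5, of the highest hepatocyte marker sums, left 45 of 46 higher, with a median of 0.18 and 21 at that p. Leaving out 1 library at a time kept 43 to 46 of 46 higher, with medians of 0.14 to 0.21.

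HF against LF in eWAT was lower in 41 of 46 Nduf genes, where 50.9% of all genes were lower, and all 36 subunits were among them with a median of −0.18. At an unadjusted p under 0.05, 11 genes were lower and 0 higher, against 4.22% of all genes lower. The smallest p-values were those of Ndufs8, Ndufb7 and Ndufs3. Ndufs8, which carries iron-sulphur clusters near the quinone site, had LF values of 48.6, 62.2, 45.0 and 70.9 CPM and HF values of 40.8 to 49.5 (median 43.6), a difference of −0.36 ± 0.12 (edgeR adjusted p = 0.69). LF 2 and LF 5 lay within the HF range, and LF 3 and LF 6 lay far above it. Ndufb7 had LF values of 75.2, 86.6, 69.6 and 114.4 CPM and HF values of 63.5 to 76.9 (−0.32 ± 0.12), with the same 2 libraries high.

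Ndufs3 had LF values of 72.5, 97.7, 86.8 and 96.2 CPM against 69.5 to 78.5 in HF (−0.23 ± 0.09), with only LF 2 inside the HF range. In Ndufb6 every HF library was lower than every LF library, which 0.513% of all genes showed (−0.18 ± 0.07). Other core subunits were at −0.11 ± 0.12 (Ndufs1), −0.29 ± 0.15 (Ndufs7), −0.23 ± 0.11 (Ndufv1) and −0.14 ± 0.11 (Ndufv2). Assembly factors were split, 5 higher and 3 lower, from −0.15 ± 0.11 (Ndufaf3) to 0.14 ± 0.13 (Ndufaf5). Ndufa4 (−0.11 ± 0.10) and Ndufa4l2 (−0.05 ± 0.17) were lower in sign only.

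This comparison depended on few libraries. The 2 LF libraries with high subunit levels, LF 3 and LF 6, are also the 2 LF libraries with testis transcripts (23.2 and 17.9 CPM of the 5 markers), and the 2 HF libraries with the most testis transcripts, HF 6 (115.5 CPM) and HF 2 (74.0 CPM), are among the 3 lowest HF libraries for the subunits. Without these 4 libraries, which leaves LF 2 and LF 5 as the only LF libraries, the split was 22 higher and 24 lower. The median was then −0.00 and 0 Nduf genes had an unadjusted p under 0.05. Over all genes the number at that p also fell, from 1126 to 433. Without LF 3 alone 33 Nduf genes were lower, with a median of −0.11 and 2 at that p. Without LF 6 alone 40 were lower, with 4 at that p. Without LF 2 or without HF 1, by contrast, 17 and 18 genes had an unadjusted p under 0.05. Without HF 2, HF 4 or HF 5 there were 6 such genes, without HF 6 there were 5, and with library totals in place of TMM 7. Without the B cell libraries 42 were lower (median −0.23), and without LF 3, LF 5 and HF 5, the libraries of highest hepatocyte marker sums, 31 were lower (median −0.13). The part of testis, B cell or liver RNA in the result was not tested.

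**Figure D4:**
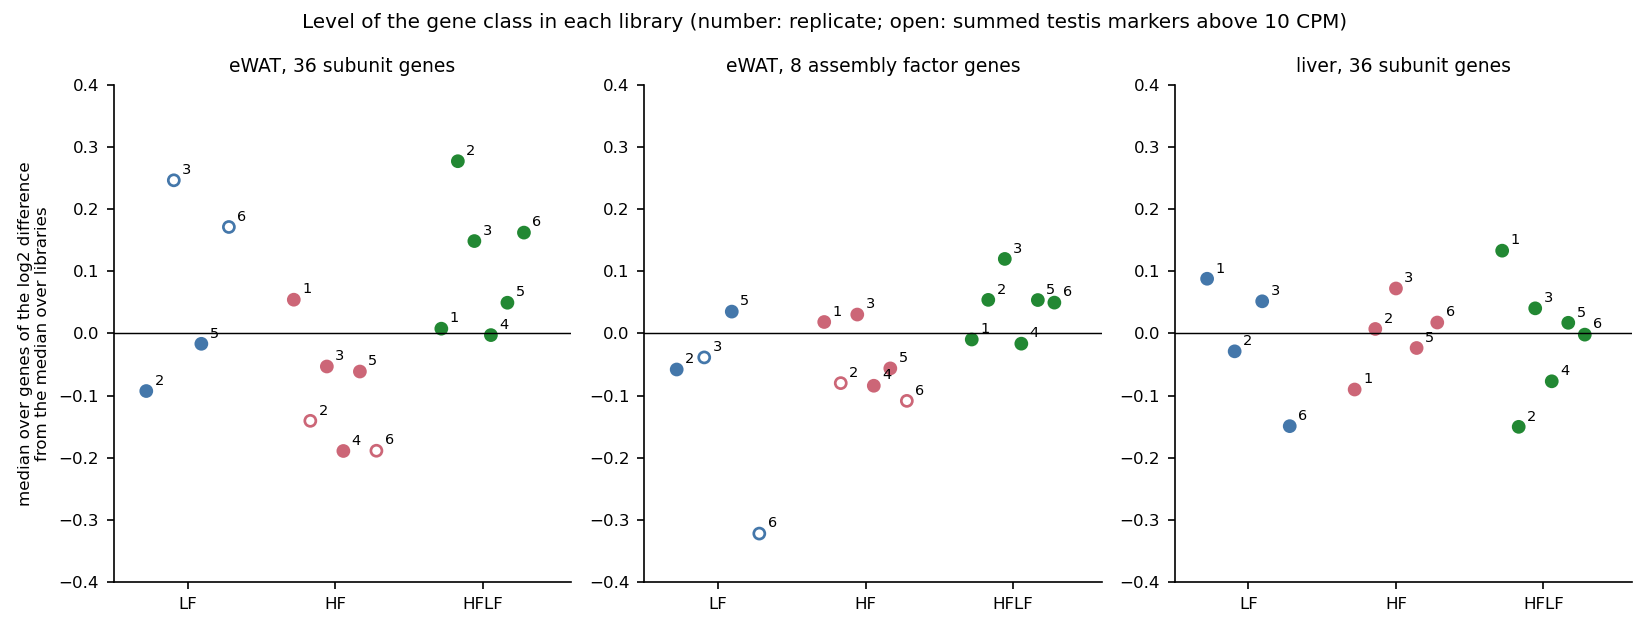
Each point is 1 library, at the median over the genes of a class of their log2 difference from the median over all libraries of the tissue, with the replicate number beside it and open circles for eWAT libraries with more than 10 CPM of testis markers. The eWAT subunit medians run from −0.19 (HF 4 and HF 6) to 0.28 (HFLF 2), and LF 6 is high for subunits (0.17) but lowest for assembly factors (−0.32).

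Library by library, the subunit median in eWAT was −0.09, 0.25, −0.02 and 0.17 in LF 2, LF 3, LF 5 and LF 6. In HF 1 to HF 6 it was 0.05, −0.14, −0.05, −0.19, −0.06 and −0.19, and in HFLF 1 to HFLF 6 it was 0.01, 0.28, 0.15, −0.00, 0.05 and 0.16. Of the HF libraries 5 of 6 were thus below 0 and of the HFLF libraries 5 of 6 above, with HF 1 inside the HFLF range. LF 3 held the highest value of 15 Nduf genes and HF 4 and HF 6 the lowest of 14 and 13.

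LF 6 was unlike the rest. It had the highest value of 12 Nduf genes and the lowest of 11, with a median exon length of 1271 bases in the first set and 2147 in the second. Its core subunit median was 0.24, but Ndufv2 was 70.9 CPM there against 87.4 to 122.7 in the other LF libraries, and Ndufs1 was 96.3 CPM against 107.9 to 147.4. Its assembly factor median was −0.32, with Ndufaf2 at 6.75 CPM against 11.4 to 12.1 in the other LF libraries and Ndufaf4 at 12.3 against 16.9 to 20.9. The complex I genes of mitochondrial DNA were lowest in LF 6 as well, at a median of −0.92. HFLF 2 likewise had high subunits (0.28) beside a low median of the mitochondrial genes (−0.49). What sets these libraries apart was not tested.

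**Figure D5:**
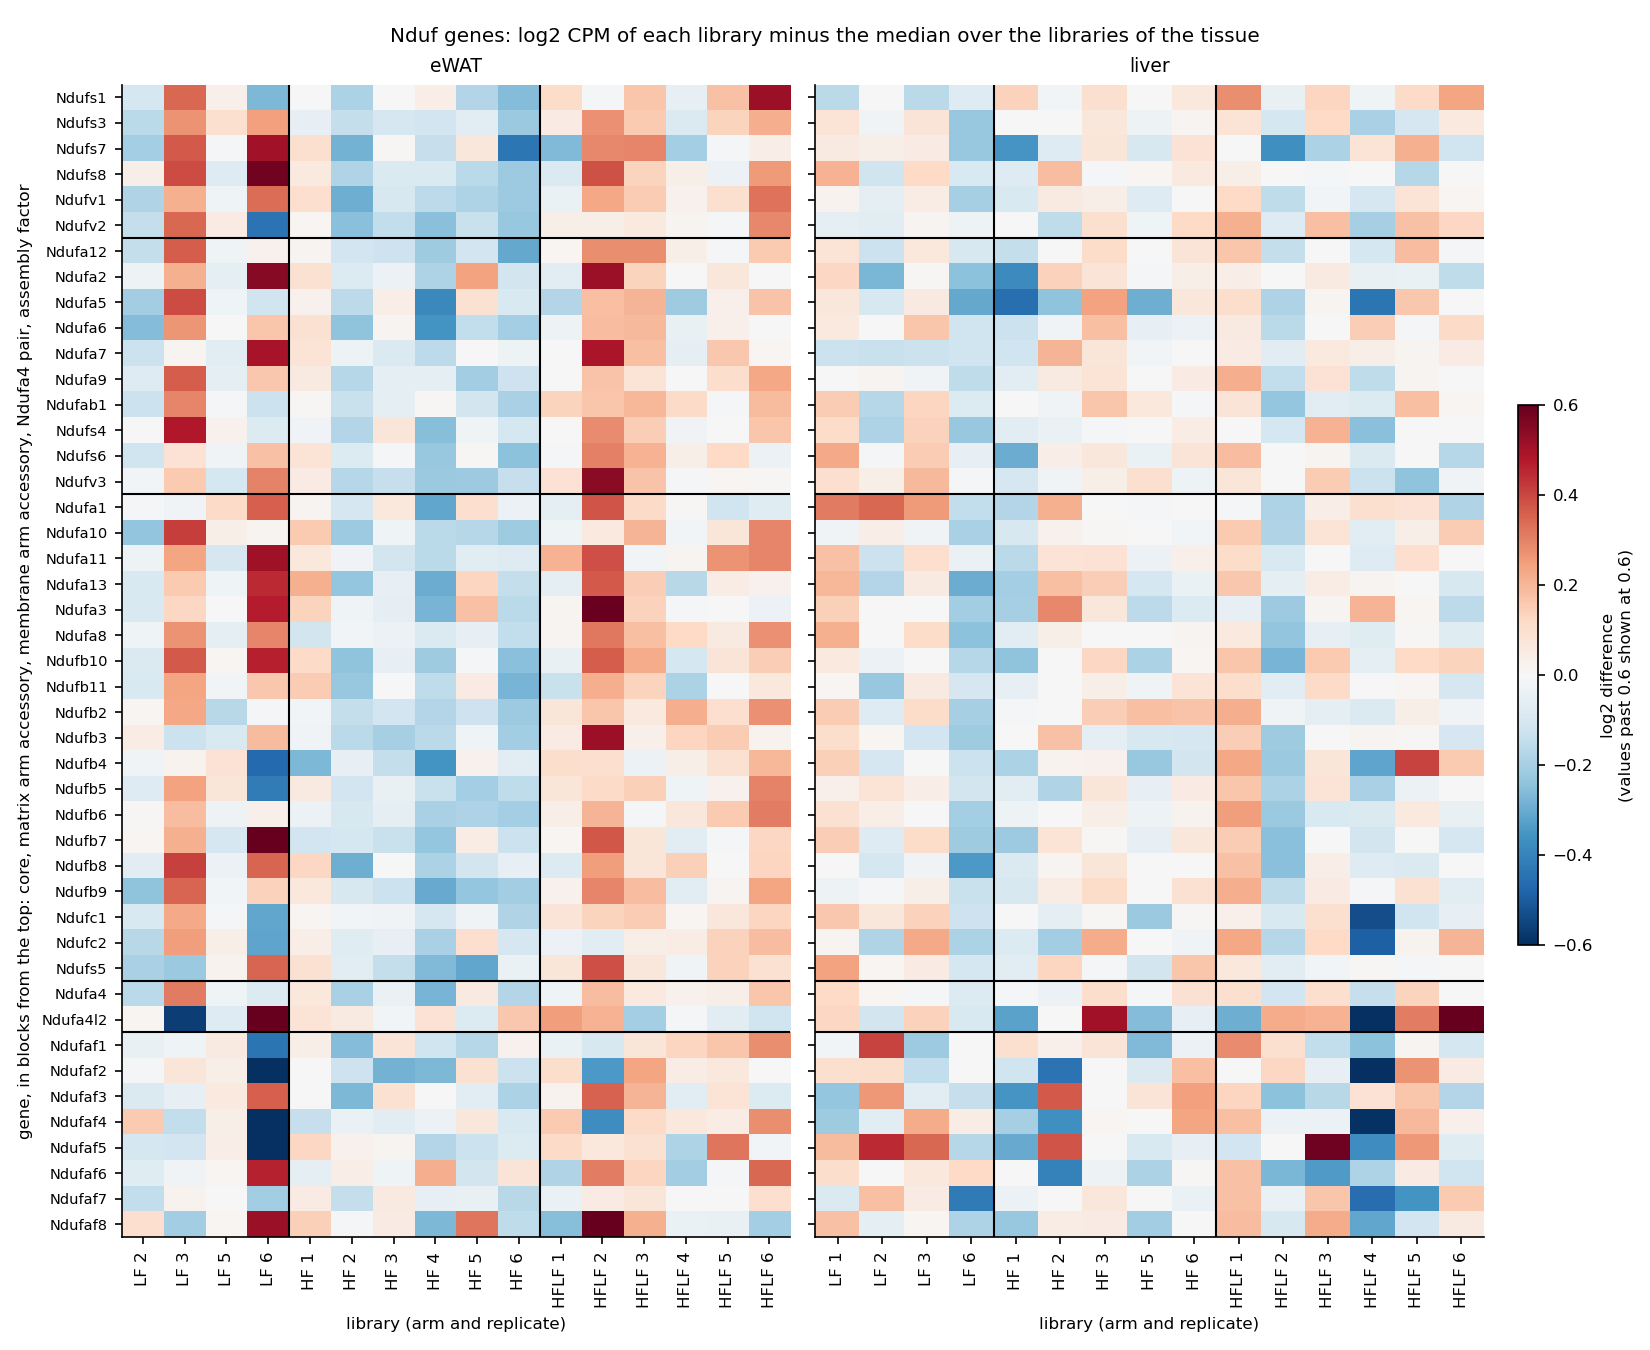
Rows are 45 of the Nduf genes in blocks by class, columns are libraries by arm, and colour is the log2 CPM minus the median over the libraries of the tissue, held at ±0.6. In eWAT HF 4 and HF 6, which hold the lowest value of 14 and 13 genes, are mostly blue, LF 3 and HFLF 2 are mostly red, LF 6 holds the highest value of 12 genes and the lowest of 11, and in liver the colour follows single libraries such as HFLF 1 and HFLF 2.

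HFLF against LF in eWAT gave no common direction. 30 Nduf genes were higher and 16 lower, the median was 0.04, and 0 had an unadjusted p under 0.05, where 10.8% of all genes did. The smallest p-values were those of Ndufaf5 (0.25 ± 0.13), Ndufaf1 (0.19 ± 0.10), an early assembly factor, and Ndufb2 (0.13 ± 0.08). Ndufaf1 was 15.6 to 21.9 CPM in LF and 19.7 to 25.6 in HFLF. Ndufaf5 was 5.04 to 7.91 CPM in LF and 6.77 to 9.62 in HFLF, and for both the lowest LF value was that of LF 6. Without the 4 libraries with testis transcripts 44 of 46 were higher, with a median of 0.13 and 4 at an unadjusted p under 0.05. Without the 3 B cell libraries 18 were higher, with a median of −0.04, and with library totals 22 were higher, with a median of −0.01. Without LF 2 alone the median was −0.04, without HFLF 2 alone −0.00, and without LF 3 alone 6 genes had an unadjusted p under 0.05. Leaving out LF 3, LF 5 and HF 5, whose hepatocyte marker sums were the highest, gave 29 higher genes, a median of 0.07, and 10 higher genes and 1 lower gene at that p, 11 in all.

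In liver the Nduf genes had no common direction between arms. HF against LF was higher in 25 and lower in 21, with 1 gene at an unadjusted p under 0.05 where 3.6% of all genes were. HFLF against LF was higher in 26 and lower in 20, with 3 at that p where 5.47% of all genes were, and HFLF against HF was higher in 24 and lower in 22, with 0 where 1.86% were. The gene of smallest p between HF and LF was Ndufa7, a matrix arm subunit, at 66.9, 66.6, 66.9 and 67.4 CPM in LF, 67.2 to 84.2 in HF and 70.0 to 76.1 in HFLF. Its differences were 0.16 ± 0.07 for HF and 0.15 ± 0.07 for HFLF, each against LF (edgeR adjusted p = 1.00 and 0.87). The LF values lay within 1 CPM of one another, and all HFLF values lay above them, as in 58 of 13677 genes.

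Ndufs1 was 98.8 to 110.3 CPM in liver LF and 107.1 to 134.1 in HFLF (0.22 ± 0.08, adjusted p = 0.86), with an HF difference of 0.16 ± 0.08. Ndufa1, an X-linked membrane arm subunit, was at 71.8, 73.6, 69.1 and 52.3 CPM in LF and 50.9 to 61.8 in HFLF (−0.22 ± 0.10), with LF 6 inside the HFLF range. Between HFLF and HF the smallest p-values were those of Ndufb4 (0.17 ± 0.13), Ndufb10 (0.10 ± 0.09) and Ndufb2 (−0.08 ± 0.08). The liver assembly factors ran from −0.21 ± 0.20 (Ndufaf5) to 0.13 ± 0.15 (Ndufaf3) for HF against LF.

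Liver libraries differed from one another more than their arms did. The Nduf median was 0.09, −0.01, 0.05 and −0.14 in LF 1, LF 2, LF 3 and LF 6, ran from −0.09 (HF 1) to 0.07 (HF 3) in HF, and from −0.13 (HFLF 2) to 0.14 (HFLF 1) in HFLF. HFLF 1 held the highest value of 14 Nduf genes and HFLF 4 and HFLF 2 the lowest of 14 and 12. In HFLF 4 the assembly factors were low (−0.33) together with the complex I genes of mitochondrial DNA (−0.50). Because of such libraries the sign counts moved freely, from 11 higher for HF against LF without LF 6 to 32 without LF 1. The coefficient of variation over all libraries of a tissue had a median of 7.36% in liver and 14.8% in eWAT for the core subunits, and 14.3% and 13.4% for the assembly factors.

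Whether the arms acted differently in the 2 tissues was tested with interaction terms between tissue and arm over all 31 libraries. By their labels 14 animals gave both tissues, and this fit treated their libraries as separate. Here 0 Nduf genes and 0% of all genes passed the adjusted threshold in each of the 3 interactions. For HFLF against HF the liver difference was the lower one in 44 of 46 Nduf genes, with a median of −0.17, and in 13 of them at an unadjusted p under 0.05, where 2.54% of all genes were. Ndufb2 had the smallest p (−0.35 ± 0.10, adjusted p = 0.94), made of −0.08 in liver and 0.28 in eWAT, and Ndufa8 followed (−0.28 ± 0.10). For HF against LF the liver difference was the higher one in 37 of 46, with a median of 0.17, and in 6 at an unadjusted p under 0.05, where 2.62% of all genes were, with Ndufb8 (0.36 ± 0.14), a membrane arm subunit, at the smallest p. For HFLF against LF 1 gene, Ndufc1 (−0.29 ± 0.14), had an unadjusted p under 0.05, where 5.84% of all genes did. Without the 4 eWAT libraries with testis transcripts the median interaction was −0.01 for HF against LF and −0.13 for HFLF against HF, with 0 and 11 genes at that p. For HFLF against LF the liver difference was then the lower one in 42 of 46, with a median of −0.15 and 3 genes at that p, where with all libraries it was lower in 27 with a median of −0.01. With library totals 2 genes were at that p for HF against LF, 1 for HFLF against HF and 0 for HFLF against LF. With the animal as block (limma) 4, 12 and 1 genes were at that p in the same order, and 0 were called. The correlation between libraries of 1 animal was 0.006 in that fit. The block thus had almost no weight, and these counts do not measure an effect of pairing.

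Other genes of the pathway were read from the same fits. Of the 7 complex I genes in mitochondrial DNA, which encode the proton-pumping core of the membrane arm, 6 were in the tables. In eWAT all 6 were higher in HFLF than in HF, by 0.05 to 0.23 (mt-Nd5 0.23 ± 0.18, mt-Nd4 0.22 ± 0.15), and 0 had an unadjusted p under 0.05. HF against LF was 3 higher and 3 lower in them. Against eWAT, liver was called higher in 6 of 6 under TMM, by 0.58 to 1.65.

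Complex I assembly genes outside the Nduf names were measured for 11 of 12. In eWAT 9 of 11 were higher in HFLF than in HF and 0 were called. At an unadjusted p under 0.05, 5 were higher, where 4.86% of all genes were. Acad9 (0.38 ± 0.08) and Ecsit (0.28 ± 0.08), which act together on the membrane arm, led. Under TMM the 11 genes summed to 383.7 to 423.6 CPM in HFLF. The sums were 345.1 to 376.5 CPM in HF and 352.1 to 379.7 in LF, with no overlap with HFLF. This separation rests on the scaling. HFLF 3 had the lowest HFLF sum and a TMM factor of 0.984, and HF 4 the highest HF sum and a factor of 1.02. With library totals these 2 libraries change order. HF against LF was 5 higher and 6 lower in the 11 genes, Ecsit being −0.28 ± 0.09.

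The 40 nuclear genes of complexes II to V with cytochrome c had mostly the same signs as the Nduf subunits. HF against LF was lower in 40 of 40 (18 at an unadjusted p under 0.05, 0 called), where 4.22% of all genes were lower at that p. HFLF against HF was higher in 39 of 40 (23 at that p, 0 called), where 4.86% of all genes were higher at that p. Cycs, cytochrome c, led at 0.40 ± 0.07 (edgeR adjusted p = 0.24). The median of these genes followed the same libraries as the Nduf subunits. It was −0.11, 0.30, −0.01 and 0.21 in LF 2, LF 3, LF 5 and LF 6. In HF 2, HF 4 and HF 6 it was −0.16, −0.18 and −0.19. The 2 sets of genes are thus not separate observations. Among 7 regulators of mitochondrial genes, 0 were called in eWAT. Esrra, the oestrogen-related receptor alpha, was 61.4 ± 5.51 CPM in HF and 70.1 ± 8.53 in HFLF (SD, n = 6 each) and 79.3 ± 14.9 in LF (n = 4), and Nrf1 was 21.2 ± 1.7, 20.4 ± 1.7 and 23.9 ± 0.60 CPM in the same order. Ppargc1a (0.04 ± 0.34) and Ppargc1b (0.08 ± 0.26) had wide errors between HFLF and HF.

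Markers of other cell types beside these eWAT values were as follows. Brown adipocyte genes were measured for 3 of 4, Ucp1 not being among the genes of the table, and summed to 12.3 to 25.8 CPM in LF, 9.21 to 14.05 in HF and 15.8 to 24.2 in HFLF. The HF and HFLF sums did not overlap, and the 3 highest libraries, LF 3, HFLF 2 and HFLF 6, were also among the 4 with the highest core subunit medians, the other being LF 6. Within the list Cidea and Cox8b were at 4.8 ± 1.2 and 7.2 ± 1.9 CPM in HF and 7.3 ± 1.8 and 11.1 ± 3.5 in HFLF (SD, n = 6 each). Dio2 was at most 1.39 CPM in every library. Cox8b, the highest of these in both arms, is itself a cytochrome oxidase gene. The sum is therefore not separate from the genes of the respiratory chain. Adipocyte markers (5 of 5) summed to 26189 to 30008 CPM in HF and 28523 to 37029 in HFLF. Macrophage markers (4 of 4) summed to 393.8 to 714.8 CPM in HF, 293.6 to 470.8 in HFLF and 416.7 to 781.0 in LF. Testis markers were at most 1.21 CPM in HFLF. The part of cell composition in the Nduf differences was not tested.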

How the data were processed

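Total RNA of liver and eWAT was sequenced, and the authors deposited raw read counts per gene for each tissue after a filter on low CPM. In both tables every gene had 0.5 CPM or more in at least 4 libraries. The submitters' processing notes name STAR and the build GRCm38.p6. Versions, counting tool and strand use were not stated in the labels or files. Deposited RPKM tables were not used, because the gene lengths they imply differed between libraries (median over genes of the largest over the smallest length 83.7 in liver and 88.6 in eWAT).

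Counts were fitted per tissue with edgeR 4.0.16 in R 4.3.3 (TMM, robust quasi-likelihood test, 1 term per arm, all libraries), and both tissues together over 12735 shared genes for liver against eWAT and the interactions. P-values were adjusted over all genes of a fit (Benjamini-Hochberg). Level per kb is CPM divided by the union exon length in GENCODE M21. The fit was tested on simulated data with larger changes and a smaller spread than these data. That test does not cover differences between arms of the size described here. The median over the Nduf genes of the lowest count in any library was 584 in liver and 644 in eWAT.

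The members and lists were chosen with earlier results of these data known. Named with values were the 3 genes of smallest p in each arm comparison and in the interactions, the 3 highest and 3 lowest per kb in each tissue, the 3 widest gaps between tissues in each direction, the core subunits and assembly factors, Ndufa4, Ndufa4l2 and Ndufab1. Counts and medians cover all 46 genes, while the values of 1 gene are not reported here, in the text or the plots by gene. Alternatives were RLE scaling, library totals, DESeq2 1.42.0, filters on low counts, only the 2 arms compared, a replicate block (limma 3.58.1 for both tissues), and leaving out libraries singly or by marker content. Library totals and the omission of libraries rich in hepatocyte markers were chosen after seeing the data.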

Additional observations from a re-analysis of the deposited data

Results flagged for a closer look

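In 180 groups of 4 to 6 libraries (1 gene in 1 arm and tissue), 12 held a library that stood apart from the others by Dixon's criterion, where chance gives about 1 in 20. In eWAT, HFLF 2 was high for Ndufa2 (127.5 CPM, others 85.06 to 98.03) and Ndufb3 (125.8 CPM, others 89.5 to 97.97). HFLF 6 was high for 2 core subunits, Ndufs1 (165.7 CPM, others 112 to 131.1) and Ndufv2 (118 CPM, others 95.79 to 100.5). LF 6 was low for Ndufaf2 (6.752 CPM, others 11.42 to 12.09) and high for Ndufaf6 (8.889 CPM, others 6.147 to 6.507).

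In liver, HFLF 4 was low for the assembly factors Ndufaf2 (5.245 CPM, others 9.349 to 11.69) and Ndufaf4 (25.12 CPM, others 36.99 to 43.36). HFLF 1 was high for Ndufb2 (54.92 CPM, others 44.48 to 48.39), HFLF 2 low for Ndufa7 (69.96 CPM, others 73.98 to 76.09) and HFLF 5 low for Ndufs8 (56.5 CPM, others 63.26 to 65.26). Among LF libraries, LF 6 was low for Ndufs7 (85.87 CPM, others 103.2 to 104.5).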

How the results depend on the processing

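The median of the Nduf genes for HF against LF in eWAT was −0.000800 without LF 3, LF 6, HF 2 and HF 6, and for liver against eWAT −0.015 with library totals in place of TMM. DESeq2 called 1 gene in liver for HF against LF, 11 for HFLF against LF, and in eWAT 12 for HF against LF, 69 for HFLF against LF and 52 for HFLF against HF, where edgeR called 0. Of these 2 were Nduf genes, Ndufb2 (0.27) and Ndufb6 (0.25). Leaving out 1 library at a time, edgeR called 0 to 13 genes for HFLF against LF in eWAT, the 13 without LF 5. Between tissues, library totals turned the sign of 8 of the 30 named Nduf genes, all called higher in liver under TMM: Ndufa2 (−0.395), Ndufa7 (−0.593), Ndufaf2 (−0.209), Ndufb4 (−0.417), Ndufb6 (−0.131), Ndufb7 (−0.194), Ndufs1 (−0.0679) and Ndufs7 (−0.141). No other setting turned a named gene there. Ndufab1 lost its call between tissues in 17 of 35 alternatives, Ndufa7 without eWAT HFLF 6, and Ndufaf7 gained one in 9 of 35. Deviations of same-numbered libraries of 2 arms of a tissue correlated at −0.338 to 0.384, over 0.1 in 12 of 27 pairs and in no comparison in every pair, and 19 of 54 libraries correlated best with their own number (8 of 12 for HFLF and HF in eWAT), so the numbers were not taken to pair the libraries. With the replicate block edgeR called 1 gene in liver for HFLF against LF, and the Nduf medians were −0.13 (HF against LF), 0.07 (HFLF against LF) and 0.18 (HFLF against HF) in eWAT and 0.01, 0.04 and 0.02 in liver. Under the block 1 Nduf gene had an unadjusted p under 0.05 for HF against LF in eWAT. With the animal as block the median between tissues was 0.73, with 41 Nduf genes called. That block had almost no weight, at a correlation of 0.006. The cause of these changes was not tested.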
